A study of Mus musculus with 34 samples.

Results

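The comparison is between pancreatic islets of untreated mice on the diet labelled HFD and of untreated mice on the diet labelled SD, both taken at the time labelled 10 W (10 weeks), and each library holds the bulk mRNA of an islet preparation. HFD and SD are the usual abbreviations for high-fat and standard diet, but the labels do not spell them out. CTRL HFD comprised 4 libraries (replicates 2 to 5) and CTRL SD comprised 3 (replicates 1 to 3), so that 7 of the 34 libraries of the series were compared. They were chosen by their titles together with the treatment label None. A further library is titled CTRL HFD replicate 1 but carries the treatment label DT (diphtheria toxin), and it entered no group.

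All mice, those of CTRL HFD and CTRL SD included, carry the genotype label RIP-DTR HTZ, a transgene whose receptor for DT is expressed from the rat insulin promoter, hence in insulin-producing cells. The untreated mice therefore carry the receptor without the toxin that acts through it. The series studied recovery after partial loss of beta cells, and its other groups at 10 weeks were DT HFD (n = 3), DT SD (n = 4), STZ HFD (n = 4) and STZ SD (n = 4), STZ being streptozotocin, a beta-cell toxin, given at 75 mg/kg. The sources used here do not give strain, age, sex, the hour of collection or whether each library came from its own animal, so p-values measure the spread between these samples, which may be technical.

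A pancreatic islet is a cluster of endocrine cells, mostly insulin-secreting beta cells with glucagon-secreting alpha cells, somatostatin-secreting delta cells and pancreatic polypeptide cells, threaded by capillaries and holding resident macrophages. Under a sustained fat-rich diet rodent islets are known to meet a higher demand for insulin, by secreting more and by adding beta cells through cell division. Islet cells also hold a circadian clock, in which the activators CLOCK and BMAL1 drive the genes of their own repressors through E-box motifs.

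Total counts per library were 11083117 to 18918348. The endocrine identity of the libraries was clear from Ins2, which had the highest authors' TPM (a level corrected for gene length) of all genes in each of the 7 libraries. Exocrine RNA was present in every library: the 27 acinar markers, genes of the enzyme-secreting cells around the islet, summed to 46565 to 130144 CPM in CTRL HFD and to 10362 to 243157 CPM in CTRL SD. All 27 were lower in CTRL HFD by their log2 fold change, with a median of -0.68, but the libraries overlapped. The mean log2 CPM of these markers was 9.77, 9.11, 8.93 and 10.31 in CTRL HFD replicates 2 to 5. It was 6.84, 10.36 and 11.24 in CTRL SD replicates 1 to 3, so CTRL SD held both the lowest and the highest library. CPM here is counts scaled to the TMM-adjusted library size. The first principal component of the 2000 most variable genes carried 22.7% of the variance and the second 21.2%, and neither separated CTRL HFD from CTRL SD.

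No gene passed the test. Of 17616 genes tested with edgeR's quasi-likelihood F test, 0 (0%) were higher and 0 (0%) were lower in CTRL HFD at a Benjamini-Hochberg adjusted p below 0.05, and the smallest adjusted p was 1. At an unadjusted p below 0.05 there were 439 genes (2.49%), of which 200 (1.14%) were higher and 239 (1.36%) were lower, and the smallest unadjusted p was 0.00035. The 439 genes were a smaller share than this threshold alone would give if no gene differed. Unadjusted p-values of single genes below are to be read against that. All 4 CTRL HFD libraries lay outside the range of the 3 CTRL SD libraries for 1356 genes (7.7%), above it for 610 (3.46%) and below it for 746 (4.23%). Such genes are described below as not overlapping, and the shares just given are the background for every count of them. The DESeq2 Wald test called 13 genes, 11 of which were below 1 CPM on average and had reads in at most 4 of the 7 libraries. The remaining 2 were the immunoglobulin genes Igkv4-61 and Ighv1-75.

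The data bounded many differences narrowly. Among the 10114 genes with a mean of at least 10 CPM, the median half-width of the 95% interval of the log2 fold change was 0.40, a factor of 1.32, and for 86.1% of them the whole interval lay between -1 and 1. Variation was wider among the CTRL HFD libraries, which include replicate 4 with its scarcer short transcripts (below), whose part was not tested. The SD of log2 CPM within the group had a median of 0.27 in CTRL HFD and of 0.18 in CTRL SD, and it was larger in CTRL HFD for 68.8% of the genes.

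The insulin genes were lower in CTRL HFD by their values without passing the test. Ins1 (chromosome 19, 52264297 to 52265476, + strand, GRCm38), the rodent gene for insulin 1, stood at 38546, 24366, 9696 and 27685 CPM in CTRL HFD replicates 2 to 5 and at 50197, 44613 and 48480 CPM in CTRL SD replicates 1 to 3. The groups did not overlap, and replicate 4 was the lowest. The log2 fold change was -0.93 (SE 0.51, 95% interval -1.98 to 0.12, unadjusted p = 0.080 by edgeR), and without CTRL HFD replicate 4 it was -0.66, and without replicates 4 and 5 it was -0.60. Ins2, the gene for insulin 2, stood at 112193, 66501, 23836 and 80125 CPM in CTRL HFD and at 123307, 108317 and 112329 CPM in CTRL SD. CTRL HFD replicate 2 was within the CTRL SD range and replicate 4 was again far below it. The log2 fold change of Ins2 was -0.70 (SE 0.55, interval -1.82 to 0.42), and without CTRL HFD replicate 4 it was -0.41.

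The promoter of Ins1 is shown because Ins1 was the hormone gene with the largest difference and because the transgene of these mice is driven by the rat form of an insulin promoter. It is the 250 bases before the RefSeq start, chr19:52264047-52264296 on the + strand (GRCm38.p6). Capitals mark GCCATCTG, the E-box known to bind the beta-cell factor NEUROD1 with its partners, and TAAT on either strand, the core of the A-boxes that bind PDX1. These motifs do not overlap one another. GCCATCTG was found 1 time, and 1.11% of the 27025 RefSeq windows of this length hold it on either strand. TAAT was found 3 times, and 55.3% of the windows hold it.
Ins1: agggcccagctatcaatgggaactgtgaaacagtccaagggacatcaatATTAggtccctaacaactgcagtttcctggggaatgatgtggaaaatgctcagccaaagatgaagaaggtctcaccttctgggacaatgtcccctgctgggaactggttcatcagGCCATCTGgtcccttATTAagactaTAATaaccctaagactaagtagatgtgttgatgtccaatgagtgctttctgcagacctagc

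Iapp, the gene for amylin, which is secreted with insulin, stood at 7466, 6538, 4062 and 6580 CPM in CTRL HFD and at 9403, 8022 and 8775 CPM in CTRL SD. These values did not overlap, with replicate 4 lowest again (log2 fold change -0.50, SE 0.41, and -0.32 without CTRL HFD replicates 4 and 5). The hormones of the other endocrine cells lay in the same range in both groups. Gcg, the glucagon gene of alpha cells, had values of 24252 to 42756 CPM in CTRL HFD and of 27099 to 40598 CPM in CTRL SD (log2 fold change 0.09, SE 0.39). Sst, the somatostatin gene of delta cells, had 3049 to 6998 CPM in CTRL HFD and 5104 to 8175 CPM in CTRL SD (-0.22, SE 0.72). Ppy, the pancreatic polypeptide gene, had 1401 to 3877 CPM in CTRL HFD and 1890 to 3384 CPM in CTRL SD (-0.21, SE 1.57). Without CTRL HFD replicate 4 Sst was at -0.03 and Ppy at -0.03, and the sign of Gcg, Sst and Ppy changed under some alternatives. The error of the Ppy difference allows a change of several fold either way. In bulk RNA, fewer cells of a type and less RNA per cell cannot be told apart.

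**Figure D1:**
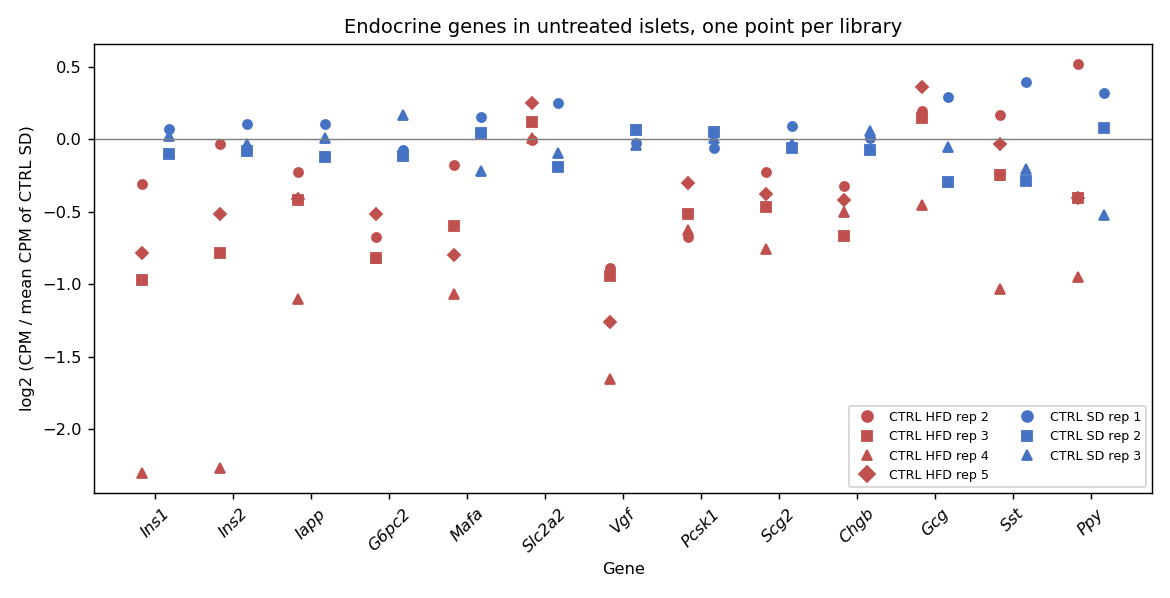
Level of 13 endocrine genes in the 7 libraries, as log2 of CPM over the mean CPM of CTRL SD, with CTRL HFD in red left of CTRL SD in blue and a marker shape for each replicate. Ins1, Iapp, G6pc2, Vgf, Pcsk1, Scg2 and Chgb have every CTRL HFD point below every CTRL SD point, and CTRL HFD replicate 4 is lowest for Ins1, Ins2, Iapp, Mafa, Vgf, Gcg, Sst and Ppy.

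Short transcripts were scarcer in CTRL HFD replicate 4 in general, and the insulin genes make short transcripts. For the 150 well-expressed genes whose longest annotated transcript has at most 750 bases, the median log2 CPM relative to the CTRL SD mean was 0.03, -0.18, -0.77 and -0.17 in CTRL HFD replicates 2 to 5 and 0.06, -0.03 and -0.01 in CTRL SD replicates 1 to 3. For the 1701 genes over 6000 bases it was -0.00, 0.07, 0.20 and 0.14 in CTRL HFD and -0.05, 0.01 and 0.05 in CTRL SD. With each library's trend on transcript length removed, the log2 fold change of Ins1 was -0.86 and that of Ins2 was -0.63. How much of the insulin values came from transcript length was not tested.

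**Figure D2:**
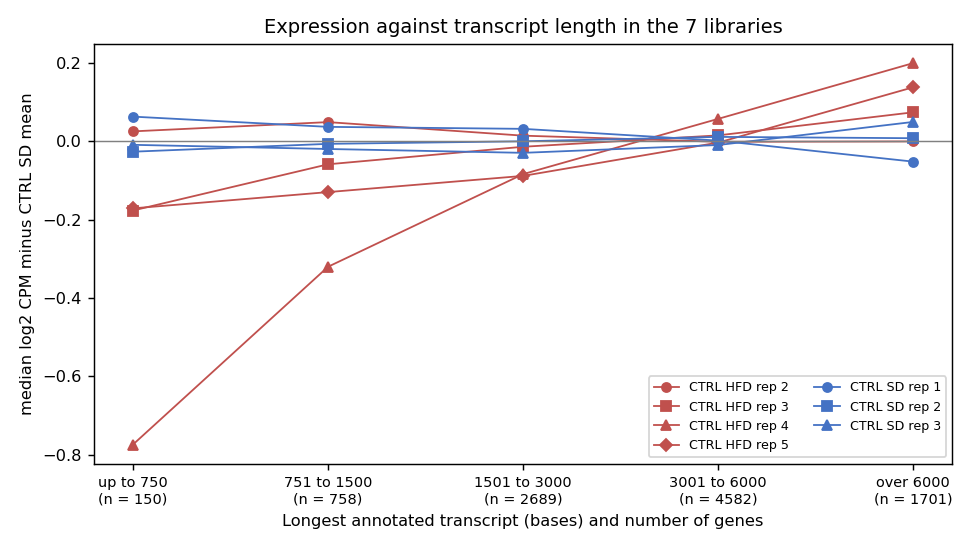
Median log2 CPM relative to the CTRL SD mean for genes grouped by their longest annotated transcript, with a line for each of the 4 CTRL HFD libraries (red) and 3 CTRL SD libraries (blue). CTRL HFD replicate 4 reaches -0.77 for the shortest group and 0.20 for the longest, while the CTRL SD libraries stay between -0.05 and 0.06 throughout.

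Most genes of beta-cell identity were lower in CTRL HFD by their values, and none was called. Of the 20 beta-cell genes, 3 had a log2 fold change above 0, against 52.2% of all genes, and the median was -0.17, against 0.01 over all genes. Of them, 5 did not overlap, all lower on HFD: Ins1, Iapp, Pdx1, Nkx6-1 and G6pc2. G6pc2 encodes the islet glucose-6-phosphatase catalytic subunit. It stood at 647, 583, 585 and 722 CPM in CTRL HFD and at 982, 953 and 1158 CPM in CTRL SD. All CTRL HFD libraries, not replicate 4 alone, were below CTRL SD (log2 fold change -0.70, SE 0.44, unadjusted p = 0.13 by edgeR).

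Mafa, a transcription factor of mature beta cells that activates the insulin genes, stood at 107, 79.8, 57.8 and 69.7 CPM in CTRL HFD and at 135, 124 and 104 CPM in CTRL SD. Only replicate 2 of CTRL HFD reached the CTRL SD range (log2 fold change -0.62, SE 0.43, and -0.37 without CTRL HFD replicates 4 and 5). Slc2a2, the glucose transporter GLUT2 of rodent beta cells, had 364 to 432 CPM in CTRL HFD and 319 to 433 CPM in CTRL SD (0.10, SE 0.43). Ucn3, a peptide of mature beta cells, had 161 to 273 CPM in CTRL HFD and 231 to 271 CPM in CTRL SD (-0.06, SE 0.44). The difference among the beta-cell genes was thus uneven, with Slc2a2 and Ucn3 near 0 and Ins1, Ins2, Mafa and G6pc2 at -0.62 or below.

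The proteins that process and pack hormones showed 5 genes lower without overlap among 16, Vgf, Pcsk1, Scg2, Scg3 and Chgb, and 1 higher, Secisbp2l, a relative of the selenoprotein synthesis factor SECISBP2 and no processing enzyme. Vgf, a granin-like precursor of secreted peptides, stood at 9.21, 8.86, 5.43 and 7.11 CPM in CTRL HFD and at 16.7, 17.8 and 16.6 CPM in CTRL SD. The CTRL SD values were tightly grouped, and every CTRL HFD value was below 10 CPM (log2 fold change -1.15, SE 0.50, interval -2.18 to -0.13, unadjusted p = 0.029 by edgeR). Pcsk1, the convertase that makes the first cuts in proinsulin, stood at 148, 165, 152 and 191 CPM in CTRL HFD and at 226, 244 and 236 CPM in CTRL SD (-0.52, SE 0.39). Pcsk2, the convertase that completes proinsulin processing and makes glucagon, overlapped, with 1400 to 2028 CPM in CTRL HFD and 1833 to 2299 CPM in CTRL SD (-0.13, SE 0.34). The granins Scg2 and Chgb had log2 fold changes of -0.44 and -0.47, while Chga was at -0.03. The other secretory lists lay closer to 0, with a median of -0.05 over 20 exocytosis genes, 0.02 over 20 genes of glucose sensing and excitation, and -0.19 over 17 receptors that tune secretion.

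Genes of dividing cells were higher by their values in 3 of the 4 CTRL HFD libraries. All 22 mitosis genes had a log2 fold change above 0, with a median of 0.73, and 6 did not overlap: Mki67, Ccna2, Aurkb, Bub1, Birc5 and Kif20a. The mean log2 CPM of the list was 3.17, 3.51, 3.36 and 2.47 in CTRL HFD replicates 2 to 5 and 2.50, 2.55 and 2.60 in CTRL SD. Replicate 5 was thus below every CTRL SD library, while the other 3 were above them. Mki67, a protein found in cycling cells of all phases, stood at 42.8, 63.3, 72.7 and 31.9 CPM in CTRL HFD and at 24.9, 26.8 and 28.2 CPM in CTRL SD. Its log2 fold change was 0.98 (SE 0.61, interval -0.28 to 2.25, unadjusted p = 0.12 by edgeR).

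Top2a, the topoisomerase that untangles replicated chromosomes, stood at 45.4, 62.3, 54.6 and 23.9 CPM in CTRL HFD and at 24.0, 29.3 and 30.6 CPM in CTRL SD. Here replicate 5 was below all of CTRL SD, so the groups overlapped (0.74, SE 0.60). Of 28 DNA replication genes 27 were above 0, with a median of 0.47, and Gins1, Tk1 and Pole did not overlap. Pola1, the catalytic subunit of DNA polymerase alpha, stood at 14.2, 17, 15.4 and 10.4 CPM in CTRL HFD and at 8.32, 7.39 and 12.6 CPM in CTRL SD (0.60, SE 0.30, unadjusted p = 0.052 by edgeR). Among 14 brakes and drivers of cell-cycle entry 5 were above 0, with a median of -0.08. Rb1 and Cdkn2c were higher without overlap, and Ccnd2 and Cdkn1c were lower without overlap. Cdkn1c, the inhibitor p57, stood at 2.30, 2.85, 2.68 and 2.02 CPM in CTRL HFD and at 4.6, 3.13 and 3.55 CPM in CTRL SD (-0.61, SE 0.29, unadjusted p = 0.047 by edgeR). Ccnd2, the main D cyclin of mouse beta cells, stood lower, at 424 to 502 CPM in CTRL HFD and 569 to 603 CPM in CTRL SD (-0.35, SE 0.21). Cdkn1a, the inhibitor p21, had 6.55 to 11.4 CPM in CTRL HFD and 10.3 to 15.8 CPM in CTRL SD (-0.40, SE 0.47), and was at -0.25 without CTRL HFD replicate 3 and at -0.23 without CTRL SD replicate 2.

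Several B-cell genes were likewise highest in CTRL HFD replicates 2 to 4, while immunoglobulin light-chain genes were not. Pax5, the factor that fixes B-cell identity, stood at 151, 193, 234 and 95.2 CPM in CTRL HFD and at 100, 110 and 104 CPM in CTRL SD. Ms4a1, the surface marker CD20, stood at 188, 253, 291 and 185 CPM in CTRL HFD and at 160, 173 and 130 CPM in CTRL SD, without overlap (0.57, SE 0.67, and 0.33 without CTRL HFD replicate 4 and CTRL SD replicate 3). Ciita, the activator of the MHC class II genes, stood at 80.5, 92.0, 114 and 45.7 CPM in CTRL HFD and at 51.8, 52.9 and 49.5 CPM in CTRL SD. For Pax5 and Ciita, CTRL HFD replicates 2 to 4 were above every CTRL SD library and replicate 5 was below them all. Iglc1, a lambda light-chain constant gene, had the smallest p of the T and B cell list, at 52.1, 43.5, 22.5 and 43.8 CPM in CTRL HFD and at 43.9, 35.9 and 227 CPM in CTRL SD (-1.33, SE 0.74, unadjusted p = 0.082 by edgeR), and its high value was in CTRL SD replicate 3. Igkc, the kappa light-chain constant gene, overlapped at 2907 to 3965 CPM in CTRL HFD and 2580 to 3973 CPM in CTRL SD. The 10 MHC class II genes were all above 0, with a median of 0.32, and 1 of them did not overlap.

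T-cell genes lay on both sides of CTRL SD. Cd3e, a subunit of the T-cell receptor complex, had 15.1 to 48.1 CPM in CTRL HFD and 27.3 to 38.9 CPM in CTRL SD (-0.12, SE 0.77). Of the 20 T- and B-cell genes 11 were above 0, and their summed level was 7457 to 10058 CPM in CTRL HFD and 6535 to 6771 CPM in CTRL SD. The sum weighs abundant genes most. The mean log2 CPM of the list was 6.23, 6.42, 6.65 and 5.61 in CTRL HFD and 5.98, 6.24 and 6.31 in CTRL SD. By this mean the groups overlapped, and the lowest library was of CTRL HFD. The part of lymphocytes in the cell-cycle values was not tested. The 23 macrophage genes had a median of 0.21, and Csf1r, the receptor for the growth factor of macrophages, had 41.5 to 73.5 CPM in CTRL HFD and 41.5 to 60.8 CPM in CTRL SD.

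**Figure D3:**
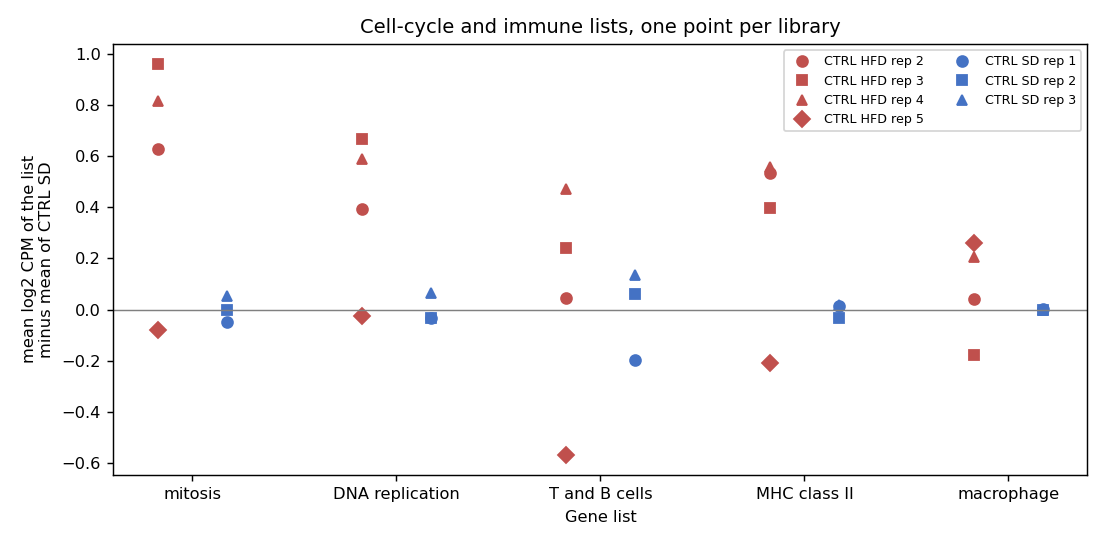
Mean log2 CPM of 5 gene lists in each library, relative to the mean of CTRL SD, with CTRL HFD in red left of CTRL SD in blue and a marker shape for each replicate. For mitosis, DNA replication and MHC class II genes, CTRL HFD replicates 2, 3 and 4 lie above all CTRL SD points, and replicate 5 lies at their level or below.

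Clock genes were the list with the most members outside the CTRL SD range, 8 of 20. Lower without overlap were Arntl, Cry1 and Nfil3, and higher without overlap were Per3, Dbp, Tef, Hlf and Nr1d2. Arntl (chromosome 7, 113207465 to 113314126, + strand), which encodes the activator BMAL1, stood at 17.7, 17.4, 15.2 and 16.6 CPM in CTRL HFD and at 23.2, 19.3 and 24.7 CPM in CTRL SD (log2 fold change -0.42, SE 0.20, interval -0.83 to -0.01, unadjusted p = 0.043 by edgeR). Cry1 (chromosome 10, 85131700 to 85185064, - strand), a repressor of BMAL1 and CLOCK, stood at 12.1, 14.3, 11.4 and 12.2 CPM in CTRL HFD and at 15.1, 19.3 and 19.9 CPM in CTRL SD. It had the smallest unadjusted p of the list, 0.0063 by edgeR (-0.54, SE 0.18).

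Dbp, a transcription factor and direct output of the clock, stood at 67.1, 57.7, 44.6 and 50.4 CPM in CTRL HFD and at 39.3, 35.9 and 19.8 CPM in CTRL SD (0.79, SE 0.39). Per3, a period protein, stood at 20.2, 17.7, 23.7 and 32.1 CPM in CTRL HFD and at 13.5, 11.4 and 11.9 CPM in CTRL SD (0.93, SE 0.44, unadjusted p = 0.042 by edgeR). All 4 CTRL HFD libraries took part in these differences, replicates 4 and 5 included. Nr1d1 and Nr1d2 encode the REV-ERB repressors of Arntl, and their log2 fold changes were 0.75 (SE 0.40) and 0.46 (SE 0.26), with overlap for Nr1d1 alone, which was at 1.18 without CTRL SD replicate 1. Per1 and Per2, whose proteins repress the clock's activators, were at 0.12 (SE 0.20) and 0.14 (SE 0.29), and Clock was at -0.08 (SE 0.19). Because clock transcripts cycle through the day, the hour of collection bears on these values, and its part was not tested.

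The promoter of Cry1 is shown because Cry1 had the smallest p of the clock genes and its promoter carries a canonical E-box. The window is the 250 bases before the RefSeq start, chr10:85185055-85185304, printed along the - strand (GRCm38.p6). Capitals mark CACGTG, the E-box bound by CLOCK and BMAL1, which reads the same on both strands. It was found 1 time here, 6.05% of the 27025 windows hold it, and 5 of the 17 clock genes that have a window do: Ciart, Bhlhe41, Cry1, Per1 and Tef.
Cry1: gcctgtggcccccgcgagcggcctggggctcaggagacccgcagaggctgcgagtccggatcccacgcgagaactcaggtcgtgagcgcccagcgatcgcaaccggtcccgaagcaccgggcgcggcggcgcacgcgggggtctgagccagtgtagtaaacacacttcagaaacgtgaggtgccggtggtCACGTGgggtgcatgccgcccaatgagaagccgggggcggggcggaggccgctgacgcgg
These 5 genes did not share a direction: Cry1 was at -0.54, Ciart at -0.15, Per1 at 0.12, Tef at 0.36 (0.22 without CTRL SD replicate 3) and Bhlhe41 at 0.42.

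For 17 of the 20 clock genes the diet difference after DT had the opposite sign to that in CTRL. Among all genes tested, 62.8% had the same sign in both. After DT 1 of the 20 rose and 6 fell by the edgeR test, against 15% and 8.46% of all genes, and in CTRL none was called. Between DT HFD and DT SD, Arntl had a log2 fold change of 1.14 (adjusted p = 0.0031 by edgeR), and Dbp had -1.29 (adjusted p = 0.023). Arntl was at 15.6 to 20.4 CPM in DT HFD and 5.89 to 10.3 CPM in DT SD, and CTRL HFD was nearer to DT HFD than CTRL SD was to DT SD. The difference between the diet effects, CTRL minus DT, was -1.56 for Arntl (SE 0.28, unadjusted p = 7.07e-06, adjusted p = 0.12 by edgeR) and 2.08 for Dbp (SE 0.56, adjusted p = 0.28). Neither passed the edgeR test, while the DESeq2 Wald test called both, with adjusted p = 4.04e-05 for Arntl and 0.027 for Dbp. After STZ the diet differences were -0.31 for Arntl and -0.21 for Dbp.

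**Figure D4:**
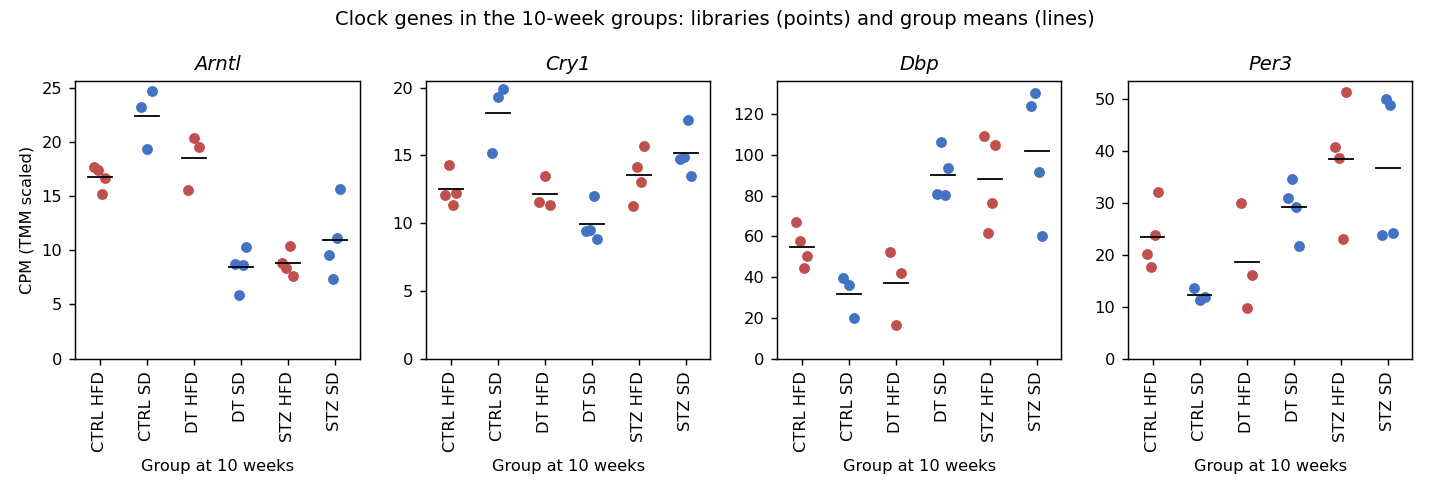
CPM of 4 clock genes in the 6 groups at 10 weeks, with HFD groups in red left of their SD groups in blue, a point for each library and a line at each group mean. Arntl is lower in CTRL HFD than in CTRL SD and higher in DT HFD than in DT SD, and Dbp shows the opposite on both counts.

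For 3 further genes the diet difference also had opposite signs in CTRL and after DT, Hbp1 and Fbxo32 being chosen after their values were seen. Hbp1, a transcriptional repressor that restrains the cell cycle, had 80.0, 76.2, 75.7 and 75.9 CPM in CTRL HFD and 63.7, 52.6 and 59.0 CPM in CTRL SD (log2 fold change 0.40, SE 0.10, unadjusted p = 0.00047 by edgeR). Fbxo32, the ubiquitin ligase atrogin-1, known as a FOXO target in muscle, had 27.2, 27.7, 28.0 and 23.3 CPM in CTRL HFD and 15.3, 11.1 and 14.7 CPM in CTRL SD (0.95, SE 0.26, unadjusted p = 0.0013). Txnip, the thioredoxin inhibitor that is strongly induced by glucose in beta cells, had 278, 312, 375 and 402 CPM in CTRL HFD and 265, 271 and 234 CPM in CTRL SD (0.41, SE 0.16, unadjusted p = 0.018). None of the 3 overlapped, and without CTRL HFD replicates 4 and 5 Txnip was at 0.20.

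After DT the diet difference was -0.35 for Hbp1 (adjusted p = 0.015 by edgeR), -0.78 for Fbxo32 (adjusted p = 0.033) and -0.38 for Txnip (adjusted p = 0.089). The difference of the diet effects, CTRL minus DT, was 0.75 for Hbp1 (adjusted p = 0.12 by edgeR) and 1.73 for Fbxo32 (adjusted p = 0.18). The DESeq2 Wald test called both differences, with adjusted p = 0.000277 for Hbp1 and 0.00226 for Fbxo32. In a fit of only the groups compared, Fbxo32 passed with an adjusted p of 0.014 by edgeR. Of the insulin signalling genes, Foxo1, a transcription factor that insulin holds out of the nucleus, had 85.1 to 105 CPM in CTRL HFD and 75.4 to 79.8 CPM in CTRL SD (0.32, SE 0.17). Akt1, a kinase downstream of the insulin receptor, had 95.5 to 105 CPM in CTRL HFD and 107 to 127 CPM in CTRL SD (-0.26, SE 0.12, unadjusted p = 0.034 by edgeR). Both were without overlap. Of the 22 genes of that list 14 were above 0, and in all 1 was higher and 2 were lower without overlap.

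Among 26 genes of fatty acid oxidation and PPAR targets, 16 were above 0, with a median log2 fold change of 0.03 and none called. The lowest value was -1.60 (SE 2.46) for Cyp4a10, a fatty acid hydroxylase near the detection limit, at 0, 0, 0.26 and 0 CPM in CTRL HFD and at 0.48, 0 and 0.091 CPM in CTRL SD. The highest was 1.02 (SE 1.29) for Fgf21, a fasting hormone, at 0.89 to 1.86 CPM in CTRL HFD and 0.048 to 1.73 CPM in CTRL SD. Pdk4, the kinase that shuts off pyruvate oxidation when fat is burned, had 40.1, 26.4, 26.9 and 51.9 CPM in CTRL HFD and 25, 21.5 and 25.8 CPM in CTRL SD, without overlap (0.59, SE 0.39, and 0.37 without CTRL HFD replicate 5). Cpt1a, which admits fatty acids to mitochondria, overlapped at 56.7 to 74.0 CPM in CTRL HFD and 37.1 to 65.1 CPM in CTRL SD (0.34, SE 0.24), and without CTRL SD replicate 1 it was at 0.13. Angptl4, a PPAR target that inhibits lipoprotein lipase, had 4.24 to 9.05 CPM in CTRL HFD and 2.71 to 5.01 CPM in CTRL SD (0.87, SE 0.60).

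Among 30 genes of sterol and fatty acid synthesis 11 were above 0, with a median of -0.06, and 3 were lower without overlap, Srebf1 and Scd2 among them. Scd2, a stearoyl-CoA desaturase, stood at 161, 215, 161 and 179 CPM in CTRL HFD and at 274, 253 and 237 CPM in CTRL SD (-0.51, SE 0.32). Srebf1, the factor that switches on fatty acid synthesis, had 52.8 to 67.3 CPM in CTRL HFD and 71.6 to 83.9 CPM in CTRL SD (-0.32, SE 0.21). G0s2, an inhibitor of the fat-splitting lipase ATGL, stood at 2.58, 3.24, 2.43 and 1.78 CPM in CTRL HFD and at 4.55, 6.35 and 3.19 CPM in CTRL SD (-0.90, SE 0.32, unadjusted p = 0.0087 by edgeR), overlapping by a narrow margin. Of 20 glycolysis genes 12 were above 0, and of 26 oxidative phosphorylation genes 4 were, with a median of -0.18. The mean log2 CPM of the oxidative phosphorylation list was 6.18, 6.07, 5.74 and 5.94 in CTRL HFD replicates 2 to 5. In CTRL SD replicates 1 to 3 it was 6.24, 6.14 and 6.21. Many subunits of oxidative phosphorylation are made from short transcripts, and the part of transcript length was not tested. Nnt, a mitochondrial transhydrogenase gene, had 32.1 to 44.5 CPM in CTRL HFD and 33.0 to 47.6 CPM in CTRL SD (-0.09, SE 0.17).

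Most stress genes of the endoplasmic reticulum were slightly lower by their values, and none was called. Of 28 such genes 5 were above 0, against 52.2% of all genes, with a median of -0.13. In all, 2 were lower without overlap, against 4.23% of all genes. Ddit3, the pro-apoptotic factor CHOP, stood at 12.8, 12.4, 12.3 and 12.8 CPM in CTRL HFD and at 15.0, 17.5 and 16.8 CPM in CTRL SD (-0.39, SE 0.16, unadjusted p = 0.026 by edgeR). Atf4, its upstream activator, had 132 to 153 CPM in CTRL HFD and 153 to 181 CPM in CTRL SD (-0.27, SE 0.13). The lumenal chaperone Hspa5 had 716 to 890 CPM in CTRL HFD and 836 to 895 CPM in CTRL SD (-0.11). The heat shock list of 15 genes had a median of -0.03, and the 20 interferon-response genes had one of 0.07.

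Reg2 and a pair of neutrophil genes had the largest differences of the lists among genes above 1 CPM in CTRL HFD, apart from enterocyte genes. Reg2, a secreted lectin of the Reg family known from regenerating pancreas, stood at 49.4, 50.9, 95.1 and 35.5 CPM in CTRL HFD and at 0.77, 1.04 and 14.0 CPM in CTRL SD. The groups did not overlap, but CTRL SD replicate 3 was more than 10 times the other 2 (log2 fold change 3.48, SE 1.62, interval 0.15 to 6.81, unadjusted p = 0.041 by edgeR). Without CTRL SD replicate 3 the log2 fold change was 6.01. Reg2 was at 0.73 to 7.60 CPM in DT HFD and 2.78 to 8.62 CPM in DT SD, so it was not higher on HFD there. In STZ HFD it spanned 0.55 to 168 CPM and in STZ SD 0 to 35.8 CPM. Its level thus also varied widely within a group. Reg1, its close relative made by acinar cells, had 1092 to 1931 CPM in CTRL HFD and 211 to 4718 CPM in CTRL SD (-0.56, SE 1.02). Acinar markers had a mean log2 CPM of 8.93 to 10.31 in CTRL HFD and of 6.84, 10.36 and 11.24 in CTRL SD replicates 1 to 3. Cpa1, the acinar carboxypeptidase, was at 632 CPM or more in all 7 libraries. The part of acinar RNA in the Reg2 values was not tested. Reads of Reg genes may be split between near-identical copies by the counting.

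S100a9, a calcium-binding protein abundant in neutrophils, stood at 4.82, 2.00, 5.04 and 6.95 CPM in CTRL HFD and at 0.53, 0.95 and 0.36 CPM in CTRL SD, without overlap (2.94, SE 0.97, unadjusted p = 0.0053 by edgeR). Its partner S100a8 stood at 1.05, 1.16, 2.62 and 2.18 CPM in CTRL HFD and at 0.34, 0.19 and 0 CPM in CTRL SD (3.11, SE 1.20). Other acute-phase genes were closer between the groups, with Lcn2 at 0.54 to 1.61 CPM in CTRL HFD and 0.55 to 1.04 CPM in CTRL SD. Among 21 cytokine and chemokine genes 9 were above 0. Il6, a cytokine of the acute-phase response, stood at 0.35, 0.23, 0.064 and 0.32 CPM in CTRL HFD and at 0 CPM in all 3 CTRL SD libraries (unadjusted p = 0.0017 by edgeR), the smallest p of that list, at a level of few reads. Cxcl2, a neutrophil chemokine, stood at 0.070, 0, 0 and 0 CPM in CTRL HFD and at 0.048, 0.095 and 0.46 CPM in CTRL SD (unadjusted p = 0.048 by edgeR). Ccl5, a chemokine of activated T cells, had 15.3 to 19.5 CPM in CTRL HFD and 21.7 to 59.8 CPM in CTRL SD (-1.21, SE 0.60, and -0.76 without CTRL SD replicate 2). Ccl19, a chemokine of lymphoid stroma, had 2.67 to 7.41 CPM in CTRL HFD and 10.8 to 13.5 CPM in CTRL SD (-1.45, SE 0.71), without overlap.

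In the supporting tissue, Col6a3 and Col5a1, both collagen chains, had log2 fold changes of 0.65 (SE 0.27) and 0.58 (SE 0.28) and overlapped, with the highest values in CTRL HFD replicates 4 and 5, without which they were at 0.21 and 0.32. Over the 24 matrix and fibroblast genes the median was 0.10. Nos3, the nitric oxide synthase of endothelium, stood at 5.86, 5.09, 5.87 and 6.30 CPM in CTRL HFD and at 7.84, 9.19 and 10.0 CPM in CTRL SD (-0.64, SE 0.29), while Pecam1, an endothelial adhesion protein, was at -0.05 (SE 0.24). Enterocyte genes, with a list median of 1.80, were present in traces: Apoa4 had 0.42, 0, 35.9 and 11.9 CPM in CTRL HFD and 4.45, 0.47 and 0 CPM in CTRL SD, and Sis was at 0 in 4 of the 7 libraries. Adipoq, the adipocyte hormone, was at or below 0.19 CPM in all 7.

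**Figure D5:**
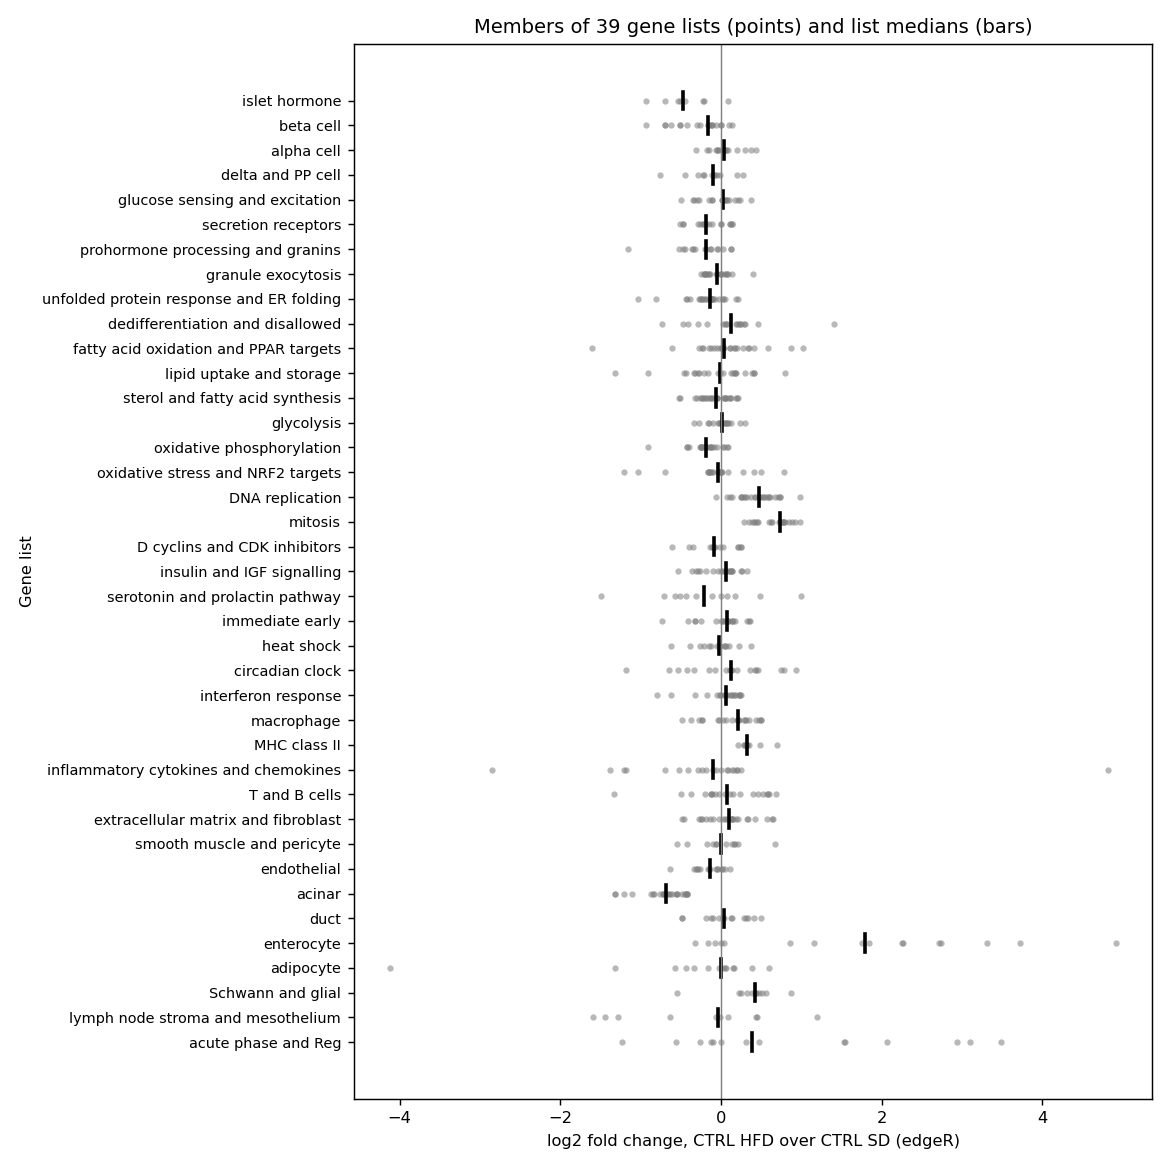
Log2 fold change of CTRL HFD over CTRL SD for each tested member of 39 gene lists (grey points) with the list median (black bar). The mitosis and MHC class II points all lie above 0 and the acinar points all below it, while most lists straddle 0, and no point passed the edgeR test.

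A call depended on the fit for Tcf24, a basic helix-loop-helix transcription factor gene chosen after its values were seen. It stood at 11.2, 11.9, 11 and 11.7 CPM in CTRL HFD and at 24.3, 27.8 and 36.5 CPM in CTRL SD. The CTRL HFD values lay within 1 CPM of each other and all were below the lowest CTRL SD value. The log2 fold change was -1.36 (SE 0.53, unadjusted p = 0.017 by edgeR over all 33 libraries). In a fit of the 7 libraries alone it was the only gene called of 15631, with an adjusted p of 0.044 by edgeR.

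The same diet contrast gave many calls in DT islets and few in STZ islets. After DT, 2646 genes (15%) rose and 1490 (8.46%) fell on HFD by edgeR, and after STZ 0 (0%) rose and 24 (0.136%) fell. A test of the difference itself called 0 genes for CTRL against DT, with 2751 (15.6%) at an unadjusted p below 0.05 and a smallest adjusted p of 0.12. It called 0 for CTRL against STZ, with 1163 (6.6%) at an unadjusted p below 0.05 and a smallest adjusted p of 0.47. By DESeq2 these counts were 66 and 28.

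Most genes called after DT had a diet difference of the same sign in CTRL. Of the 2646 genes that rose after DT, 2174 (82.2%) were above 0 in CTRL. Of the 1490 that fell, 1169 (78.5%) were below 0 in CTRL. Over all genes the sign was shared by 62.8%, and the CTRL and DT contrasts have no library in common. All 22 mitosis genes rose after DT, with a median of 2.40 against 0.73 in CTRL, and Mki67 had 3.07 (adjusted p = 0.0046 by edgeR). Of the 16 processing and granin genes 12 fell after DT, with a median of -1.18 against -0.19 in CTRL. Of the 20 beta-cell genes 10 fell after DT, with a median of -1.16 against -0.17 in CTRL. The diet effect in CTRL minus that after DT was -2.08 for Mki67 (SE 0.84, adjusted p = 0.28 by edgeR) and 0.81 for Ins1 (SE 0.73, adjusted p = 0.56), so these differences in size were not called.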

How the data were processed

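The labels' protocols name the Qiagen RNeasy Mini kit for RNA and QIAseq stranded mRNA for libraries. The submitters' processing notes name the build mm10. The sources used here do not give the aligner, counter, strand setting or annotation. The deposited table holds total read counts per gene and, beside them, TPM values that the authors computed. Columns were matched by library number. Counts were tested, and TPM values only ranked genes within a library.

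Genes passing filterByExpr by group (minimum count 10, total 15), 17616 of 48709, entered 1 robust quasi-likelihood fit of edgeR 4.0.16 (R 4.3.3, TMM) over 33 libraries in 9 groups, with group as the only factor. Adjusted p-values are Benjamini-Hochberg over all genes tested. The fit was tested on simulated data. SE is on the log2 scale, and list levels are means of log2 CPM with a prior count of 2. DESeq2 1.42.0 was an alternative, and others left out each library or changed scaling, filter or covariates. Coordinates are of GENCODE M21, and 99.26% of identifiers matched. No pair of replicates agreed within counting noise (smallest chi-square per degree of freedom 25.7).

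The members and the 39 lists were chosen with earlier results of these data known. Genes named are Gcg, Sst, Ppy, Ins1, Ins2, Mafa, Slc2a2, Nnt, Mki67, Top2a and Cdkn1a, called genes, and the 3 members with the smallest p in each list. Others named were chosen after their values were seen, and some genes of the rule are not reported here.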

Additional observations from a re-analysis of the deposited data

Results flagged for a closer look

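Of 68 genes examined in the 4 CTRL HFD libraries, 2 had a library apart from the other 3 by Dixon's test, which chance gives in about 1 of 20 groups. Fbxo32 was lowest in CTRL HFD replicate 5 at 23.3 CPM, against 27.2 to 28.0 CPM in the other CTRL HFD libraries, the gap being 0.83 of the range. Hbp1 was highest in CTRL HFD replicate 2 at 80.0 CPM, against 75.7 to 76.2 CPM in the other CTRL HFD libraries, a gap of 0.888 of the range. For both genes all CTRL HFD values remained above CTRL SD.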

How the results depend on the processing

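With edgeR, 0 genes were called for CTRL HFD against CTRL SD under every alternative run except the fit of only the groups compared, which called 1 (Tcf24). DESeq2 called 13. For the diet effect in CTRL minus that after DT, DESeq2 called 66 and the fit of only the groups compared called 2, among them Fbxo32, and for CTRL minus STZ DESeq2 called 28. The cause was not tested. Leaving out any of the 7 libraries gave 0 calls in the 3 comparisons. CTRL HFD and CTRL SD share the replicate numbers 2 and 3, whose deviations correlated at -0.034 and -0.054. Pairs with unlike numbers gave -0.043 to 0.062. The matched pairs thus showed no shared deviation, but 2 pairs cannot decide whether samples of one number belong together. With the replicate number as a block, 0 genes were called in the 3 comparisons, and the sign turned for Sst (0.21), Ppy (0.83) and Slc2a2 (-0.12). CTRL HFD replicate 5 alone has number 5 among the 7 libraries. Of 68 genes followed, 63 kept their sign under 18 alternatives. With single libraries left out, Gcg ranged from -0.036 to 0.26, Sst from -0.38 to 0.024 and Nnt from -0.20 to 0.069. Alternatives chosen after seeing the data were length offsets and leaving out CTRL HFD 4 with CTRL SD 3 or CTRL HFD 4 with 5. Without CTRL HFD 4 and 5, Ppy was at 0.13. Differences below the interval half-width were not detectable with 4 and 3 libraries. The half-width carries no adjustment for the number of genes tested, so larger differences could also go uncalled.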

Other observations

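Immunoglobulin genes differed between single libraries more than between the diets. In CTRL SD replicate 3, Igkv4-61 stood at 3656 CPM and made 74.5% of the counts of the 160 kappa variable genes, and Ighv1-75 stood at 2230 CPM and made 63.7% of those of the 185 heavy variable genes. Among constant regions, Ighg2b was at 3042 CPM and Igha at 1650 CPM in that library. A different pair, Igkv8-16 and Ighv1-11, led in CTRL HFD replicate 5 (57.4% and 66.3%), CTRL HFD replicate 4 (30.2% and 29.3%), CTRL SD replicate 1 (26.5% and 31.3%) and CTRL SD replicate 2 (14.6% and 16.4%). In those 4 libraries the constant region Ighg3 stood at 2593, 977, 770 and 182 CPM, in the same order. In CTRL HFD replicates 2 and 3, no variable gene exceeded 15.5% of its family.

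Rpl10, a ribosomal protein gene on chromosome X (74270812 to 74273135), stood at 292, 358, 420 and 329 CPM in CTRL HFD and at 156, 159 and 187 CPM in CTRL SD (log2 fold change 1.06, SE 0.32, unadjusted p = 0.0025 by edgeR). Its processed copy Rpl10-ps3 stood at 453, 288, 94.1 and 345 CPM in CTRL HFD and at 504.1, 500.6 and 540.3 CPM in CTRL SD. The sum of both was 745, 646, 514 and 674 CPM in CTRL HFD and 660, 659 and 728 CPM in CTRL SD. Rpl10 took 39.2% to 81.7% of the sum in CTRL HFD and 23.6% to 25.7% in CTRL SD, and the counting may split reads between the copies.

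G6pc2 and Spc25, a kinetochore gene, are neighbours on chromosome 2 (69211073 to 69227841, + strand, and 69193895 to 69206194, - strand). Spc25 stood at 80.5, 56.5, 53.2 and 63.2 CPM in CTRL HFD and at 112, 111 and 111 CPM in CTRL SD (log2 fold change -0.82, SE 0.39), without overlap and lower, as G6pc2 was, while all 22 mitosis genes were above 0.

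The library with conflicting labels had 16600 CPM of Ins1, 103 CPM of Mki67, 272 CPM of Ms4a1 and 97.0 CPM of Reg2, and it had 15.0 CPM of Arntl and 10.6 CPM of Fbxo32.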
